A study of Mus musculus with 34 samples.

Results

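Processed pseudogenes of ribosomal protein genes are the subject of this account, measured in 34 RNA-seq libraries that differed in how they were prepared. Members were the genes whose symbol joins the name of a ribosomal protein gene to the ending -ps and a number, such as Rpl27-ps3, and 274 of the 51368 genes in the count table met this rule. They derive from 55 parent symbols, of which 54 were in the table. Rpl31 had the most copies with 24, followed by Rps12 with 18 and Rpl21 with 15. The GENCODE M21 annotation lists 261 of them as processed pseudogenes, 7 as transcribed processed pseudogenes and 6 as protein-coding genes, spread over 20 chromosomes.

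The liver libraries were made from RNA of 1 wild-type C57BL/6J mouse aged 12 weeks, given as male in one label and female in another, and a heart RNA gave 1 further library. PolyA selection captures RNA by its tail, pull-down removes ribosomal RNA with hybridising probes, and digestion removes it with enzymes after probes have bound. Each of these 3 methods was represented by 9 liver libraries, 1 for each combination of slow, medium or fast PCR ramp rate with short, medium or long fragments, from 200 ng of RNA. Unselected libraries, in which ribosomal RNA was kept, numbered 3 in batch 1 and 3 in batch 2 for liver, plus the heart library in batch 1, all with slow ramp, medium fragments and 20 ng of RNA. All libraries carried adapters with molecular identifiers and went through 13 PCR cycles. The TruSeq Stranded mRNA kit served for polyA, the TruSeq Stranded Total RNA kit for pull-down and unselected libraries, and for digestion the Illumina Stranded Total RNA Prep with Ligation and Ribo-Zero Plus with other adapters put in. PolyA and digestion each had a kit of their own, so for these the method and the kit cannot be told apart, while pull-down and unselected libraries shared 1 kit. Batch 1 held every polyA library, and batch 2 held the pull-down and digestion ones, so for polyA against either of these the method and the batch cannot be told apart. The libraries are technical preparations from 1 animal, and no p-value below measures the spread between animals. Each combination of method, ramp and length has 1 selected library, so the spread used is what the fitted terms leave over. In fits that give all methods the same length effect, this includes any difference in length effect between methods.

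Total counts (M, 1e+06 counts) ranged from 23.5 to 41.4 M in polyA, from 20.0 to 30.2 M in digestion and from 19.9 to 21.7 M in unselected liver libraries. Pull-down libraries had a median of 28.1 M, but the slow-ramp, long-fragment library held 1.13 M, and calls of named members that change without it are given beside the results. The 5 hepatocyte markers Alb, Apoa1, Ttr, Cyp2e1 and Cps1 were detected in every liver group, with a summed level of at least 11115 CPM (counts scaled to a library total of 1e+06) per library against 57.4 in the heart library. The 5 heart muscle markers summed to at most 0.772 CPM in a liver library and to 8463 CPM in heart. Markers of other liver cells differed between methods, with none of them at 0 in a liver group. The 5 Kupffer and blood cell markers (Ptprc, Clec4f, Cd5l, Hba-a1 and Hbb-bs) summed to 362 to 425 CPM in polyA, 378 to 486 in pull-down, 111 to 128 in digestion and 54.4 to 59.6 in unselected liver libraries. The 3 sinusoidal endothelium markers (Stab2, Lyve1 and Pecam1) summed to 46.7 to 54.7 CPM in polyA, 130 to 148 in pull-down, 136 to 143 in digestion and 20.9 to 23.3 in unselected liver. Their part in the differences between methods given below was not tested.

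A processed pseudogene is a copy of a messenger RNA that was reverse-transcribed and inserted into the genome, so it carries the parent's exons joined without introns and usually no promoter of its own. Ribosomal protein messenger RNAs are abundant and short, and mammalian genomes hold many such copies of them. A read from the stretch that parent and copy share fits both, and Salmon, the quantifier named by the submitters, divides such reads between transcripts by a statistical model. The count of an identical copy therefore reflects how shared reads were divided and cannot by itself show transcription from the pseudogene's locus. Counts of single libraries were rounded to whole numbers, so a copy listed at 0 had an estimate of 0 or a fraction that rounds to 0.

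Over the 33 liver libraries 12 members had a mean of at least 100 counts, 73 a mean from 1 to 100, 98 a mean above 0 but under 1, and 91 had no count. The 12 highest held 96.8% of all counts given to members. The lowest of the 12, Rps13-ps2, averaged 236 counts and the next member below, Rps2-ps10, 41.7. What the 12 shared was sequence. Each was identical to a transcript of its parent over all aligned bases, and 11 of them lay whole inside the parent transcript. The exception was Rpl10-ps3, which matched over 740 of its 768 bases. Of 268 members with at least 50% of their length aligned to the parent, 53 were at least 99% identical to it, and these included all 12. None of the 215 members under 99% identity reached a mean of 100 counts. The median identity was 98.7% for members with 1 to 100 counts, 96.3% for those under 1 and 89.5% for those with no count. Identity did not fix the level, since 3 members at 99% or more had no count, among them Rpl10-ps1 and Rpl38-ps2, which lie whole inside their parents' transcripts with 645 and 213 bases.

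**Figure D1:**
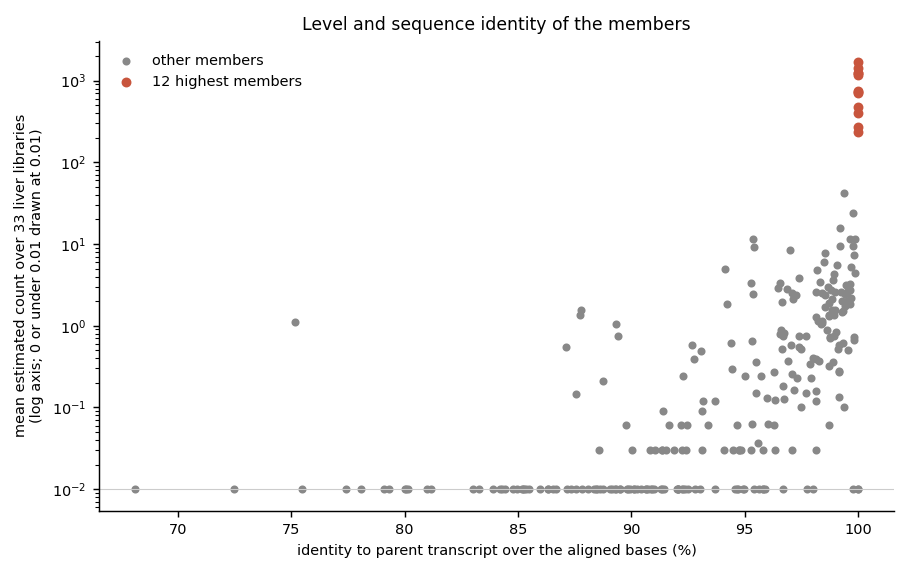
Mean estimated count over 33 liver libraries (log axis, values under 0.01 drawn at 0.01) against percent identity to the parent transcript over the aligned bases, 1 point per member with at least 50% of its length aligned. The 12 highest members (red) sit at 100% identity with means from 236 to 1684 counts, and the other members (grey) lie below 100 counts.

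The same 60 bases are shown for 3 families because they let the parent, its identical copy and its diverged copies be read side by side. Bases that differ from the parent are in capitals, sequences run 5′ to 3′ on the gene's strand, coordinates are GRCm38, and the sequences come from the GENCODE M21 transcripts. The first family is that of Rps6, the small-subunit protein phosphorylated by S6 kinase.
Rps6: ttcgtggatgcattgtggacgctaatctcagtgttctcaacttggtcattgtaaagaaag
Rps6-ps4: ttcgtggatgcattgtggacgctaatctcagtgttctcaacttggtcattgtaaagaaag
Rps6-ps3: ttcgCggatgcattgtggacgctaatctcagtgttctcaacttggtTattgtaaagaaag
Rps6-ps1: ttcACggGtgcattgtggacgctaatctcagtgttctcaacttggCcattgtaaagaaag
Rps6-ps2: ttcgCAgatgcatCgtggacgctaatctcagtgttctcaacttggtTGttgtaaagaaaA
Rps6 averaged 4956 counts over the liver libraries and Rps6-ps4 (minus strand, chr2:75191474-75191533), with no difference in these bases, averaged 1183. The diverged copies averaged 7.82 counts for Rps6-ps3 (2 differences), 2.60 for Rps6-ps1 (4 differences) and 0.129 for Rps6-ps2 (6 differences).

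The second family is that of Rpl31, a large-subunit protein near the exit of the tunnel through which the new protein leaves.
Rpl31: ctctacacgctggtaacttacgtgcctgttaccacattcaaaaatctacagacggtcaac
Rpl31-ps8: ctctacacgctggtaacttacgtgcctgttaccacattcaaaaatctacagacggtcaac
Rpl31-ps11: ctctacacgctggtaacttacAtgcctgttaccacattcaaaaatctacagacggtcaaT
Rpl31-ps9: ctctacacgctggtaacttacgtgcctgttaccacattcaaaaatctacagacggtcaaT
Rpl31-ps14: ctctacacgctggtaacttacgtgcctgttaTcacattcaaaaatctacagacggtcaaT
Rpl31 averaged 2122 counts and its identical copy Rpl31-ps8 (minus strand, chr15:90764294-90764353) 739. Rpl31-ps11, Rpl31-ps9 and Rpl31-ps14, with 2, 1 and 2 differences in these bases, averaged 2.96, 1.82 and 1.15 counts.

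The third family is that of Rps13, a small-subunit protein.
Rps13: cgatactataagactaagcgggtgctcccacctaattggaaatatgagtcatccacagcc
Rps13-ps2: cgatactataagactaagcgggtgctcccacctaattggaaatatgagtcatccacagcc
Rps13-ps1: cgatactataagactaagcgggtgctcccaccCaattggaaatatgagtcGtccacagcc
Rps13-ps4: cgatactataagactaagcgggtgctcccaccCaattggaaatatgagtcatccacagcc
Rps13-ps5: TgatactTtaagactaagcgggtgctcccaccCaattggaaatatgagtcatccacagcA
Rps13 averaged 1861 counts and Rps13-ps2 (minus strand, chr7:88530461-88530520) 236. Rps13-ps1, with 2 differences, averaged 11.6 counts, Rps13-ps4, with 1, averaged 1.51, and Rps13-ps5, with 4, averaged 0.552. In each of the 3 families the copy identical to the parent had the highest mean of the copies over the liver libraries. This was fixed by the choice of families, since each identical copy is among the 12 highest members. The copies shown were taken in order of mean count. The 60 bases were chosen as the coding stretch in which most of these copies differ from the parent, so they are no neutral sample.

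Each of the 12 is annotated as 1 exon. Among the large-subunit copies, Rpl10-ps3 (chr9:50344201-50344968, minus strand), Rpl10a-ps1 (chr1:64993951-64994604, minus), Rpl15-ps3 (chr9:22185607-22186221, minus), Rpl27-ps3 (chromosome 18, plus) and Rpl31-ps8 (chr15:90764279-90764656, minus) overlap no other annotated gene. Rpl28-ps1 (chr1:128038569-128038982, plus) lies in an intron of Zranb3 on the opposite strand, and Rpl36a-ps2 (chr3:145879020-145879340, plus) lies in an intron of Ddah1 on the same strand. Among the small-subunit copies, Rps6-ps4 (chr2:75191073-75191822, minus) lies in an intron of the lincRNA 2600014E21Rik, Rps12-ps3 (chr19:59322290-59322783, plus) in an intron of Pdzd8 and Rps16-ps2 (chr5:129128077-129128517, minus) in an intron of Adgrd1, each on the strand opposite to its host. Rps23-ps1 (chr3:37714740-37715164, plus) overlaps an exon of Gm5148 on the opposite strand, and Rps13-ps2 (chr7:88530446-88530898, minus) overlaps no gene. The annotation types Rpl10-ps3 and Rps12-ps3 as protein-coding. Genes outside the -ps naming rule can be as close to a parent: Rps12l1, identical to Rps12 over 399 bases, averaged 8.06 counts.

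Values per library are given as counts and as the copy share, which is the copy's counts as a percent of the counts of copy plus parent. Fragment lengths are the submitters' settings, and libraries at 1 length are listed in the order slow, medium and fast ramp. Rpl28-ps1 copies Rpl28, a large-subunit gene. In polyA libraries Rpl28-ps1 held 3586, 2892 and 3843 counts with short fragments, 3308, 3891 and 3544 with medium and 862, 1037 and 884 with long ones. Its copy share was 50.1%, 47.6% and 46.6% with short fragments and 15.9%, 14.5% and 14.4% with long ones. In digestion libraries the share was 52.8%, 53.4% and 51.5% with short and 21.5%, 23.1% and 20.7% with long fragments. In pull-down libraries it was 49.2%, 45.1% and 42.6% with short fragments, and the copy was listed at 0 in each of the 3 long libraries, where Rpl28 held 142, 2926 and 2431 counts. Short and long libraries did not overlap in any method, and the short-fragment shares were close across methods while the long-fragment shares were not. Unselected libraries gave 41.7%, 37.6% and 38.7% in batch 1 and 40.4%, 52.7% and 38.7% in batch 2. This range overlapped the medium-fragment values of every method, in pull-down only at its highest value.

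Rpl27-ps3 copies Rpl27, another large-subunit gene. Its share in polyA libraries was 64.2%, 63.9% and 61.7% with short, 58.5%, 52.2% and 55.6% with medium and 10.2%, 6.3% and 17.5% with long fragments. Digestion gave 63.3%, 66.9% and 65.1% with short and 53.3%, 52.8% and 55.6% with medium fragments, and 0 in all 3 long libraries. Pull-down gave 62.3%, 48.3% and 38.4% with short fragments and 0 in the 6 medium and long libraries. The length at which the copy was listed at 0 thus differed, at medium length in pull-down and at long length in digestion, while polyA kept a share at every length. All 6 unselected liver libraries listed Rpl27-ps3 at 0 beside 175 to 225 counts of Rpl27.

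Rpl31-ps8 and Rpl36a-ps2, the latter a copy of Rpl36a whose protein lies near the exit site for transfer RNA, had, unlike Rpl27-ps3, a higher share in long digestion than in long polyA libraries. The polyA share of Rpl31-ps8 was 42.0%, 43.2% and 41.6% with short fragments and 0 in all 3 long libraries, where Rpl31 held 4986, 5825 and 5216 counts. Digestion gave 57.7%, 59.5% and 62.1% with short and 42.7%, 35.3% and 40.6% with long fragments. Pull-down gave 43.7%, 36.1% and 25.1% with short fragments, 5.4% in 1 medium library, and 0 in the other 5. Rpl36a-ps2 followed the same layout, with 35.1%, 40.6% and 30.2% in short and 0 in long polyA libraries. Its digestion share was 67.7%, 59.1% and 65.1% with short and 42.2%, 41.5% and 37.3% with long fragments. The pull-down share of Rpl36a-ps2 was 32.8%, 24.8% and 10.9% with short fragments and 0 in the other 6 libraries. For both copies every long digestion library was above every long polyA library. In unselected libraries Rpl31-ps8 had shares from 5.4% to 31.7% and Rpl36a-ps2 was listed at 0 in all 6.

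Rpl10a-ps1 copies Rpl10a, whose protein forms the L1 stalk of the large subunit. It had its highest shares in polyA, from 36.6% to 50.7% over the 6 short and medium libraries and 23.9%, 7.8% and 23.4% in the long ones. Digestion and pull-down shares were from 15.9% to 20.0% and from 17.0% to 23.2% with short fragments, and 0 in all 6 long libraries. Rpl15-ps3 copies Rpl15, a core protein of the large subunit, and was listed at 0 in all 9 digestion libraries, where Rpl15 held 2257 to 4086 counts. PolyA libraries gave Rpl15-ps3 37.1%, 36.2% and 29.5% with short fragments and 7.1%, 0 and 0 with long ones, and pull-down gave 19.1%, 6.8% and 7.9% with short and 0 with long fragments. Unselected shares of Rpl15-ps3, from 26.0% to 39.3%, lay above every pull-down and digestion value. With short fragments both copies had lower shares in pull-down and digestion than in polyA libraries, with no overlap.

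Rpl10-ps3 stood apart from the other 11. Its parent Rpl10 encodes a protein that joins the large subunit late in its maturation. Rpl10-ps3 was listed at 0 in all 9 short libraries and in all 9 digestion libraries. It held 10378 counts (58.7%) in the slow-ramp medium polyA library and 0 in the other 2 medium ones. Long polyA libraries gave 8415, 7935 and 4594 counts, which were shares of 67.3%, 51.7% and 33.5%. Pull-down gave 5148 and 6352 counts in 2 of 3 medium libraries, and 7660 counts (68.0%) in 1 of 3 long libraries. In unselected liver libraries it took 873, 836 and 792 counts in batch 1 and 862, 873 and 863 in batch 2, or 78.3% to 89.8% of the pair. The copy was thus either at 0 or at 33.5% and above, and the selected libraries fell on both sides within 1 method and length.

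**Figure D2:**
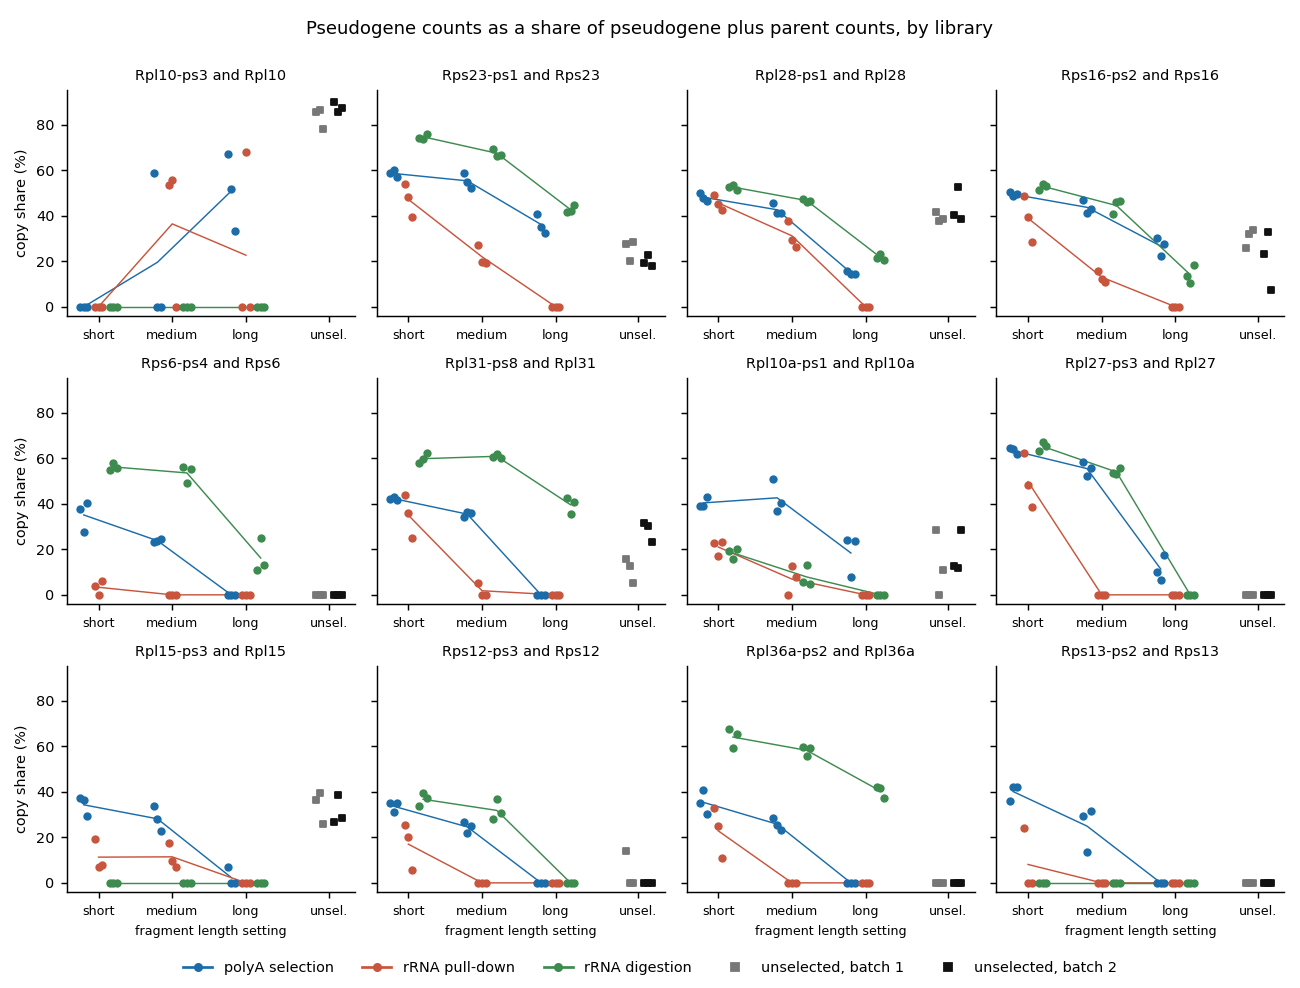
Copy share, the counts of the pseudogene as a percent of pseudogene plus parent counts, by fragment length for the 12 highest members. Points are libraries (blue polyA, red pull-down, green digestion, squares unselected medium-length libraries of batch 1 in grey and batch 2 in black), and lines join the means of 3 libraries. For Rpl28-ps1 the short libraries lie between 42.6% and 53.4% and the long ones between 0 and 23.1%, while Rpl10-ps3 is at 0 in every short library.

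Among the small-subunit copies, Rps6-ps4 had a different share in each method. PolyA libraries gave it 4538, 2513 and 4758 counts with short and 2876, 3280 and 3307 with medium fragments, and 0 in all 3 long libraries, where Rps6 held 8287, 10184 and 9809. Digestion gave 1978, 2183 and 2490 counts with short, 2771, 2542 and 2658 with medium and 591, 1290 and 641 with long fragments. Pull-down gave 222 and 392 counts in 2 short libraries and 0 in the other 7. The share was 54.9% to 57.8% in short digestion libraries, 27.5% to 40.1% in short polyA libraries and at most 6.3% in pull-down, with no overlap between methods at short length. All 6 unselected liver libraries listed it at 0 beside 572 to 632 counts of Rps6, where 3 counts would be 0.475% to 0.524% of the pair. Such limits, here and below, cover counting error only.

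Rps16-ps2 copies Rps16, whose protein reaches towards the site where peptidyl transfer RNA sits. Its polyA share was 50.3%, 48.5% and 49.4% with short and 30.1%, 22.5% and 27.4% with long fragments. Digestion gave 51.5%, 54.1% and 53.2% with short and 13.7%, 10.3% and 18.3% with long fragments. Pull-down gave 48.8%, 39.3% and 28.5% with short, 15.9%, 12.3% and 10.9% with medium and 0 with long fragments. Long libraries lay below short ones in each method, and in medium libraries pull-down lay below the other methods. Unselected values ran from 7.3% to 33.8%.

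Rps23-ps1 copies Rps23, whose protein sits at the decoding centre. Its share was 58.7%, 59.8% and 57.1% in short and 40.9%, 35.2% and 32.2% in long polyA libraries. Digestion gave 74.2%, 73.8% and 75.9% with short and 41.4%, 42.1% and 44.5% with long fragments. Pull-down gave 53.8%, 48.3% and 39.3% with short, 27.1%, 19.5% and 19.2% with medium and 0 with long fragments, where Rps23 held 180, 5579 and 5592 counts. It was the only one of the 12 besides Rpl28-ps1, Rps16-ps2 and Rpl31-ps8 with counts in all 6 unselected liver libraries and in all 9 digestion libraries, at unselected shares of 18.01% to 28.4%.

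Rps12-ps3 and Rps13-ps2 were listed at 0 in all 9 long libraries. Rps12-ps3 had shares of 30.9% to 35.002% in short polyA, 33.6% to 39.4% in short digestion and 5.5% to 25.4% in short pull-down libraries. In unselected libraries 1 of 6 gave it counts, with 46 beside 279 of Rps12. Rps13-ps2 had 36.0%, 42.0% and 42.1% in short polyA libraries, 0 in all 9 digestion libraries and 24.2% in 1 of 9 pull-down libraries, that with slow ramp and short fragments. These copies shared the zeros at long length and differed in digestion.

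**Figure D3:**
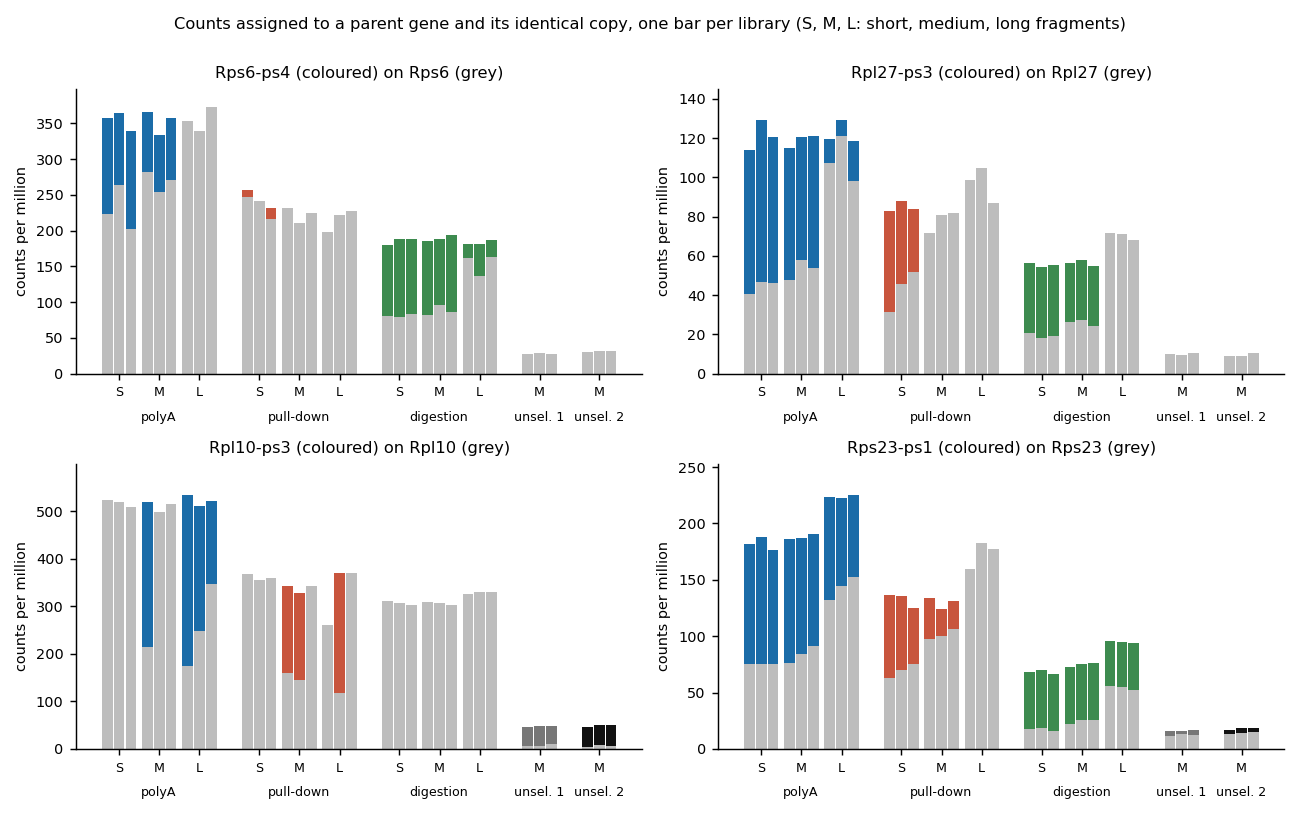
CPM assigned to a parent (grey) and its identical copy (coloured, stacked), 1 bar per liver library, grouped by method and by short (S), medium (M) or long (L) fragments. For Rps6 the stacked height changes little with length within a method while the copy's part goes to 0 in the 3 long polyA libraries, and for Rpl10 the copy appears in some medium and long libraries and in all unselected ones.

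Set against unselected liver, 7 of the 12 highest members were higher in polyA libraries and the other 5 did not pass the test. Of the 274 members, 35 passed the filter on low counts, and in polyA libraries 14 of these passed an adjusted p of 0.05, 11 higher and 3 lower, where 53.0% of all 15422 genes tested did, 26.9% higher and 26.2% lower (edgeR quasi-likelihood test on the 33 liver libraries, with ramp and length as covariates). The share of members called, 40.0%, was no higher than the background. The filter lets a member pass through its high group alone, and 20 of the 35 had a mean of at least 10 counts in polyA but not in unselected libraries, against 1 the other way round. Here and in the comparisons below, the direction of the members tested is therefore partly set by the filter, and their counts and medians are descriptions. Levels below are normalised CPM, CPM of a library size scaled by the TMM method, and differences are log2 fold changes ± SE. They are fitted over 33 libraries with length and ramp as covariates and can differ from ratios of the means. Rps23-ps1 averaged 68.9 ± 8.53 normalised CPM (SD, n = 9) in polyA and 18.2 ± 3.41 (n = 3) in unselected libraries, a log2 difference of 2.26 ± 0.83 (adjusted p = 0.0226). Rps16-ps2 averaged 62.9 ± 19.2 against 25.8 ± 2.24, with a log2 difference of 1.69 ± 0.62 (adjusted p = 0.0238). The 9 polyA libraries lay above the 3 unselected ones for each of these copies. Rpl15-ps3 passed by a narrow margin at 1.74 ± 0.73 (adjusted p = 0.0496), although its means of 28.8 and 25.9 normalised CPM were close and the libraries overlapped. The fit of the 12 libraries compared alone gave 0.89 for Rpl15-ps3 (adjusted p = 0.244), and its call was also lost with RLE scaling (0.0582) and without the library with 1.13 M counts (0.0661).

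Rps6-ps4, Rpl27-ps3 and Rps13-ps2 were at 0 in the 3 unselected libraries, so that folds are lower bounds against 3 counts per library. They were at least 75.9-fold, 57.4-fold and 26.9-fold higher in polyA selection, with adjusted p of 0.0172, 0.00959 and 0.0212. Rpl10a-ps1, with a log2 difference of 2.47 ± 1.06, lay at the threshold itself (adjusted p = 0.04996, counted as called; 0.0514 without the library with 1.13 M counts and 0.0568 with RLE scaling). Rpl10-ps3 averaged 88.8 ± 111 normalised CPM in polyA and 177 ± 10.6 in unselected libraries, which did not pass (adjusted p = 0.967). These calls were fragile: leaving out any 1 of the 3 unselected libraries left 5 of 48 members tested called, 2 higher and 3 lower. Of all genes, 7376 of 15717, 7347 of 15718 and 7355 of 15717 were called in these fits. Of the 7 called among the 12 highest, Rpl27-ps3 kept its call each time. Rps13-ps2 lost it in 2 of the 3 fits (adjusted p = 0.0516 and 0.0514), as did Rpl10a-ps1 (0.174 and 0.136). Rps23-ps1, Rps16-ps2, Rps6-ps4 and Rpl15-ps3 missed the threshold each time, with adjusted p from 0.0501 to 0.133, as did Rps23-ps1 (0.0843), Rps16-ps2 (0.0959) and Rpl15-ps3 (0.417) with DESeq2. With library totals in place of TMM, which moved the median of all genes by 2.67 on the log2 scale, 28 members were higher and 1 lower, as 14641 of 15422 genes were called. The fit of the 12 libraries compared alone gave 12 higher and 0 lower of 33 tested, where 7532 of 14083 genes were called, and added Rpl28-ps1, Rpl31-ps8, Rpl36a-ps2 and Rps12-ps3 to the copies called higher.

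In pull-down against unselected libraries 1 of the 35 members tested was called, Rpl14-ps1, which was lower, against 35.6% of all genes, 19.2% higher and 16.4% lower. Rpl14-ps1 copies Rpl14, a large-subunit gene, and its call rested on few counts: 30, 0 and 0 in the unselected libraries of batch 2 and 0 to 7 in the 9 pull-down libraries. Without the library with 30 counts the log2 difference turned to 3.59 (adjusted p = 0.831). With library totals in place of TMM, 21 members were higher and 1 lower, but 14699 of 15422 genes were called and the median of all genes moved by 2.31 on the log2 scale. None of the 12 highest passed edgeR's test on the 33 libraries. DESeq2 called 3 of them, all higher, Rps6-ps4, Rps12-ps3 and Rps13-ps2, where 4960 of 15422 genes were called, and did not call Rpl14-ps1 (adjusted p = 0.386). The edgeR fit of the 12 libraries compared alone tested 16 members and called Rps23-ps1 higher (adjusted p = 0.00392) and Rpl28-ps1 lower (0.0479). In that fit 2392 of 14072 genes were called. Rpl28-ps1 averaged 19.0 ± 15.4 normalised CPM against 34.6 ± 6.29 and Rpl10-ps3 61.6 ± 94.5 against 181 ± 0.838, with adjusted p of 0.385 and 0.652.

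Digestion gave 4 calls among the 35, 1 higher and 3 lower, against 17.1% of all genes, 8.51% higher and 8.64% lower. Rps6-ps4 was at least 75.0-fold higher than in unselected libraries (adjusted p = 0.0185). Rpl10-ps3 was at 0 in 9 digestion libraries against 181 ± 0.838 normalised CPM in 3 unselected ones, at least 2500-fold lower (adjusted p = 0.00394). Rpl15-ps3 was at least 307-fold lower, from 22.2 ± 3.50 normalised CPM (adjusted p = 7.19e-06). The third lower member was Rpl14-ps1, whose log2 difference turned to 2.05 (adjusted p = 0.934) without the same unselected library. Leaving out any 1 of the 3 unselected libraries took the Rps6-ps4 call away (adjusted p from 0.0582 to 0.0667), and library totals in place of TMM, which moved the median of all genes by 2.85 and called 15151 of 15422, gave 22 higher and 3 lower. The balance of directions turned with DESeq2, which called 4 higher and 2 lower, where 2405 of 15422 genes were called. It also turned in the fit of the 12 libraries compared alone, with 6 higher and 3 lower of 19 tested, where 3557 of 14725 were. Rps6-ps4, Rps12-ps3, Rpl27-ps3 and Rpl36a-ps2 were higher and Rpl10-ps3 and Rpl15-ps3 lower in both of these fits. The 3 comparisons with unselected libraries include the difference in RNA input, and those of pull-down and digestion share their controls. For polyA, pull-down and digestion the median log2 difference of the 35 members was 2.26, 0.62 and 0.63 as fitted, and 0.71, 0 and 0 with members at 0 in a whole group set to their bound, against 0.04, 0.06 and 0.04 over all genes.

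Between the methods that remove ribosomal RNA, 21 of 35 members were called, 8 higher and 13 lower in digestion, where 70.0% of all genes were, 34.5% higher and 35.5% lower. Rps6-ps4 rose from 2.24 ± 4.57 normalised CPM in pull-down to 47.0 ± 22.5 in digestion (n = 9 each), a log2 difference of 5.58 ± 0.92 (adjusted p = 5.32e-06). Rps16-ps2 was higher in digestion by 2.00 ± 0.37 (adjusted p = 2.32e-05) and Rpl31-ps8 by 2.41 ± 0.90 (adjusted p = 0.0182). Without the 3 long pull-down libraries the Rpl31-ps8 difference was 1.39 and did not pass (adjusted p = 0.105). Without the library with 1.13 M counts alone Rpl36a-ps2 lost its call and Rpl10a-ps1 was called lower (−1.25, adjusted p = 0.0340). Rps27a-ps2, a copy of Rps27a, which encodes a fusion of ubiquitin to a small-subunit protein, was higher by 4.73 ± 0.60 (adjusted p = 7.23e-07). It held 175, 174 and 173 counts in short digestion libraries and at most 8 in any pull-down library. Rpl10-ps3, Rpl15-ps3 and Rps13-ps2 were lower in digestion, at least 850-fold, 117-fold and 25.5-fold, with adjusted p of 0.000623, 1.3e-08 and 0.0191. The Rps13-ps2 bound rests on the 1 pull-down library in which it was seen. A fit of the 18 libraries compared alone tested 14 members and called 6, where 10174 of 14140 genes were called. In it Rps6-ps4, Rps16-ps2, Rpl31-ps8 and Rpl36a-ps2 were higher in digestion and Rpl36-ps12 and Rps2-ps10 lower, so the balance of directions turned.

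Of the 12 highest members, 11 were higher in polyA than in pull-down libraries. The exception was Rpl10-ps3, at a log2 difference of 1.02 ± 1.65 (adjusted p = 0.593). Of the 11, Rpl31-ps8 lost its call with DESeq2 (2.51, adjusted p = 0.0564) and without the 3 long pull-down libraries (1.39, adjusted p = 0.0701). Rps16-ps2 was higher by 3.23 ± 0.39 (adjusted p = 1.49e-08) and Rps6-ps4 by 4.53 ± 0.87 (adjusted p = 4.21e-05). Of the 35 members tested 22 were higher and 3 lower in polyA, against 71.5% of all genes called (35.7% higher, 35.8% lower). A mean of at least 10 counts was reached by 12 of the 35 in polyA only and by 1 in pull-down only. Without the filter 40 of 183 members were higher and 9 lower, where 11956 of 27486 genes were called. Rps13-ps1 was not among the 22 (0.71 ± 1.03, adjusted p = 0.544), but was called higher in polyA without the library with 1.13 M counts (3.60, adjusted p = 0.00335). Against digestion, 24 of 35 members were higher and 4 lower in polyA, where 80.1% of all genes were called (38.0% higher, 42.1% lower). Here 14 reached that mean in polyA only and 2 in digestion only. Without the filter 71 of 183 were higher and 9 lower, where 14039 of 27486 genes were called. Rpl10a-ps1, at 44.4 ± 18.5 against 4.50 ± 4.26 normalised CPM, was higher by 4.10 ± 0.61 (adjusted p = 4.05e-07). Rps6-ps4 and Rpl31-ps8 did not pass in that comparison, at −1.06 ± 0.72 and −0.57 ± 0.81 (adjusted p = 0.179 and 0.522), but DESeq2 called Rpl31-ps8 lower in polyA (−2.53, adjusted p = 0.0456). Of the 12 highest, Rpl28-ps1, Rps12-ps3 and Rps23-ps1 lost their calls against digestion with DESeq2. Fits of the 18 libraries compared alone tested fewer members and called 12 of 16 for polyA against pull-down, where 9840 of 13846 genes were called, and 9 of 15 for polyA against digestion, where 11776 of 14196 were. Each comparison of polyA with these methods includes batch, and the unselected libraries of the batches gave 0 calls among 35 members (0 at an unadjusted p under 0.05; Rps12-ps3, lower in batch 2, with DESeq2; 0.0324% of all genes, 0.0130% higher and 0.0195% lower). Few members could differ there, since 26 of the 35 averaged under 10 counts in both batches and 12 were at 0 in both.

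Of the 12 highest members, 10 were lower and 1 was higher with long than with short fragments in the 27 selected libraries. Of 35 members tested, 25 were called, 23 lower and 2 higher, where 40.5% of all genes were called, 22.9% higher and 17.6% lower. A mean of at least 10 counts was reached by 10 of the 35 in short libraries only and by 2 in long ones only. Without the filter 52 of 183 members were lower and 2 higher, where 6259 of 27381 genes were called. The median log2 difference of the 35 was −2.01, also with the 4 members at 0 in a whole group set to their bound, beside 0.02 over all genes. Rpl28-ps1 fell from 48.7 ± 21.6 to 13.9 ± 11.3 normalised CPM (n = 9 each; log2 difference −2.05 ± 0.43, adjusted p = 0.000665). Rpl27-ps3 fell by 4.85 ± 0.89 on the log2 scale (adjusted p = 0.000177) and Rps6-ps4 by 4.17 ± 0.94 (adjusted p = 0.00118). Rps12-ps3 and Rps13-ps2, at 0 in all 9 long libraries, were at least 62.2-fold and 36.5-fold lower. Rps23-ps1 did not pass, at −1.29 ± 0.52 (adjusted p = 0.0514), but did without the library with 1.13 M counts (−1.13, adjusted p = 0.0343). In that fit 36 of 47 members tested were called, 34 lower and 2 higher, where 7743 of 15743 genes were called.

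The 2 higher members were Rpl10-ps3, at least 1076-fold higher than in the 9 short libraries at 0 (adjusted p = 0.00616), and Rps13-ps1, at 3.94 ± 1.25 (adjusted p = 0.0127). Rps13-ps1 held 222 counts in the medium-ramp, long-fragment polyA library, 51 of the 92 counts of the pair in the pull-down library with 1.13 M counts, and at most 28 in every other liver library. Its difference was 3.00 without the library with 1.13 M counts (adjusted p = 0.0153), and its call was lost with DESeq2 (adjusted p = 0.293).

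In each method most of the members called were lower with long fragments. In polyA libraries 32 of 38 members tested were called, 30 lower and 2 higher, where 56.4% of all genes were called (27.7% higher, 28.6% lower), and the 2 higher were again Rpl10-ps3 and Rps13-ps1. The 12 highest gave 11 of the 30 lower. Of the 38, 23 averaged at least 10 counts in short libraries only and 3 in long ones only. Without the filter 39 of 164 members were lower and 2 higher, where 7842 of 23601 genes were called. The Rps13-ps1 call was lost with DESeq2 (adjusted p = 0.200), without the medium-ramp, long-fragment library that held its 222 counts (0.0653) and without the medium-ramp, short-fragment library (0.0718). Rpl28-ps1 fell from 77.3 ± 2.84 to 25.7 ± 1.28 normalised CPM (n = 3 each; log2 difference −1.61 ± 0.04, adjusted p = 3.7e-10). Rps6-ps4, Rpl31-ps8, Rps12-ps3, Rpl36a-ps2 and Rps13-ps2, at 0 in the long polyA libraries, were at least 1033-fold, 601-fold, 452-fold, 262-fold and 381-fold lower. Rps23-ps1 moved least among the 12, at −0.35 ± 0.05 (adjusted p = 8.15e-05).

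In digestion libraries 12 of 18 members were called and all 12 were lower, where 18.7% of all genes were called, 9.16% higher and 9.53% lower. Of the 18, 6 averaged at least 10 counts in short libraries only and 1 in long ones only. Rps16-ps2 fell from 45.4 ± 0.977 to 10.7 ± 3.42 normalised CPM (log2 difference −2.11 ± 0.11, adjusted p = 5.72e-10) and Rps6-ps4 from 62.4 ± 3.04 to 17.7 ± 8.02 (−1.84 ± 0.15, adjusted p = 2.91e-07). Rpl27-ps3, Rpl10a-ps1 and Rps12-ps3 went to 0, at least 340-fold, 146-fold and 140-fold lower. Rpl31-ps8 and Rpl36a-ps2 changed by −0.24 ± 0.07 and −0.23 ± 0.07 (adjusted p = 0.0205 and 0.0373), calls that DESeq2 did not make (0.0677 and 0.342). Both calls were also lost in some of the fits that left out 1 digestion library.

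In pull-down libraries 7 of 16 members were called and all 7 were lower, where 1.60% of all genes were called, 1.19% higher and 0.411% lower. Of the 16, 12 averaged at least 10 counts in short libraries only and 1 in long ones only. They were Rps23-ps1, Rpl28-ps1, Rps16-ps2, Rpl27-ps3, Rpl15-ps3, Rps12-ps3 and Rpl36a-ps2, each at 0 in the 3 long libraries, with bounds from 12.8-fold for Rpl36a-ps2 to 59.95-fold for Rps23-ps1. The bounds are low because the long group includes the library with 1.13 M counts. Without that library 16 of 21 members tested were called, 13 lower and 3 higher (Rpl10-ps3, Rpl36-ps12 and Rps2-ps10), but 5414 of 14432 genes were then called as well. Rpl10-ps3 (higher) and Rpl31-ps8 and Rpl10a-ps1 (lower) were among those gained, and DESeq2 called these 3 with all 9 libraries. Rps6-ps4, which did not pass the filter with all 9 libraries, was tested in that fit and called lower (adjusted p = 8.21e-06). DESeq2 did not call Rps12-ps3 or Rpl36a-ps2 (adjusted p = 0.0874 and 0.114).

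Counts over libraries show the same layout without a test. With short fragments 18 of 108 values of the 12 copies were 0, with medium ones 30 and with long ones 70. In the 3 long pull-down libraries 35 of 36 values were 0, in long digestion libraries 18 of 36 and in long polyA libraries 17 of 36. Over the 9 pairs of long and short libraries matched on method and ramp, the copy share was lower with long fragments in 9 of 9 for Rps23-ps1, Rpl28-ps1, Rps16-ps2, Rpl31-ps8, Rpl10a-ps1, Rpl27-ps3, Rps12-ps3 and Rpl36a-ps2. It was lower in 8 pairs for Rps6-ps4, in 6 for Rpl15-ps3 and in 4 for Rps13-ps2, with the remaining pairs at 0 in both. For Rpl10-ps3 it was lower in 0, higher in 4 and at 0 on both sides in 5.

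The length effect itself differed between methods for some copies. Of 35 members tested for an interaction, 5 differed between digestion and pull-down, all with a higher value in digestion, where 7.97% of all genes were called, 3.32% higher and 4.66% lower. Between polyA and pull-down 7 differed, 5 higher and 2 lower in polyA, where 1.92% of all genes were called, 0.751% higher and 1.17% lower. Between polyA and digestion 9 differed, 3 higher and 6 lower in polyA, where 25.4% of all genes were called, 12.9% higher and 12.6% lower. The share of members called between polyA and digestion, 25.7%, was close to that background. Sizes can be read where neither method's libraries are at 0. Rpl28-ps1 fell further in polyA than in digestion, by a log2 difference between the effects of −0.54 ± 0.09 (adjusted p = 0.000598), and Rps16-ps2 fell less far in polyA, by 0.98 ± 0.26 (adjusted p = 0.0103). For Rps23-ps1 the effects of polyA and digestion differed by −0.05 ± 0.16, which did not pass (adjusted p = 0.868). Rpl31-ps8, Rps6-ps4 and Rpl36a-ps2 fell further in polyA and Rpl27-ps3 and Rpl10a-ps1 further in digestion (adjusted p from 2.11e-06 to 0.00892), in each case because 1 method's long libraries were at 0, so no size is given. Without the library with 1.13 M counts the same 5 and 7 members differed from pull-down, and between polyA and digestion Rps13-ps1 was added to the 9, while 4162, 1369 and 5866 of 15743 genes were called in the 3 comparisons. This alternative was added after the data had been seen.

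Summed over all members, their counts as a percent of members plus parents were 8.55% ± 0.0951 (SD, n = 3) in short, 8.00% ± 2.14 in medium and 4.53% ± 1.00 in long polyA libraries. Digestion gave 8.31% ± 0.146, 7.36% ± 0.13 and 2.85% ± 0.154, and pull-down 4.44% ± 1.08, 3.26% ± 1.79 and 1.33% ± 1.68. The long library was below its short partner in 9 of 9 pairs. Unselected libraries gave 7.50% ± 0.598 in batch 1 and 7.75% ± 0.509 in batch 2, of which Rpl10-ps3 was the largest part, since without it both batches gave 3.36%. Without Rpl10-ps3 the long polyA libraries gave 2.51%, 1.86% and 2.11%, against a mean of 4.53% with it, and the slow-ramp medium polyA library fell from 10.5% to 7.81%. The medium pull-down libraries gave 4.42%, 4.16% and 1.20% with it and 1.70%, 1.44% and 1.20% without it. The long pull-down libraries gave 0.637% (the library with 1.13 M counts), 3.24% and 0.0956% with it and 0.637%, 0.0865% and 0.0956% without it. Short and digestion values did not change, as the copy is at 0 there. These sums are descriptions, as they run over chosen members.

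Most of the parents were higher with long fragments, and the median difference was smaller when each of the 12 parents was counted together with its copy. This count was added after the data had been seen. In polyA libraries 12 of 12 parents were called for length when counted alone, 11 higher and 1 lower, with a median log2 difference of 0.77, and 7 of 12 when merged with the copy, 5 higher and 2 lower, with a median of 0.07. In digestion the counts were 12 and 11 with medians of 0.91 and 0.22, and in pull-down 5 and 3 with medians of 0.72 and 0.20. Rpl27 rose by 1.34 ± 0.05 alone in polyA and by 0.07 ± 0.03 with Rpl27-ps3 (adjusted p = 0.0922). Rps6 rose by 0.92 ± 0.06 alone in digestion and changed by −0.01 ± 0.02 with Rps6-ps4 (adjusted p = 0.732). Rpl10, which alone fell by 1.04 ± 0.20 in polyA, changed by 0.07 ± 0.03 with Rpl10-ps3 (adjusted p = 0.0327). Rps23 kept a rise of 0.35 ± 0.03 in polyA and 0.48 ± 0.03 in digestion with its copy, and Rps16 changed sign, from 0.68 ± 0.04 alone to −0.19 ± 0.03 with Rps16-ps2 in digestion.

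**Figure D4:**
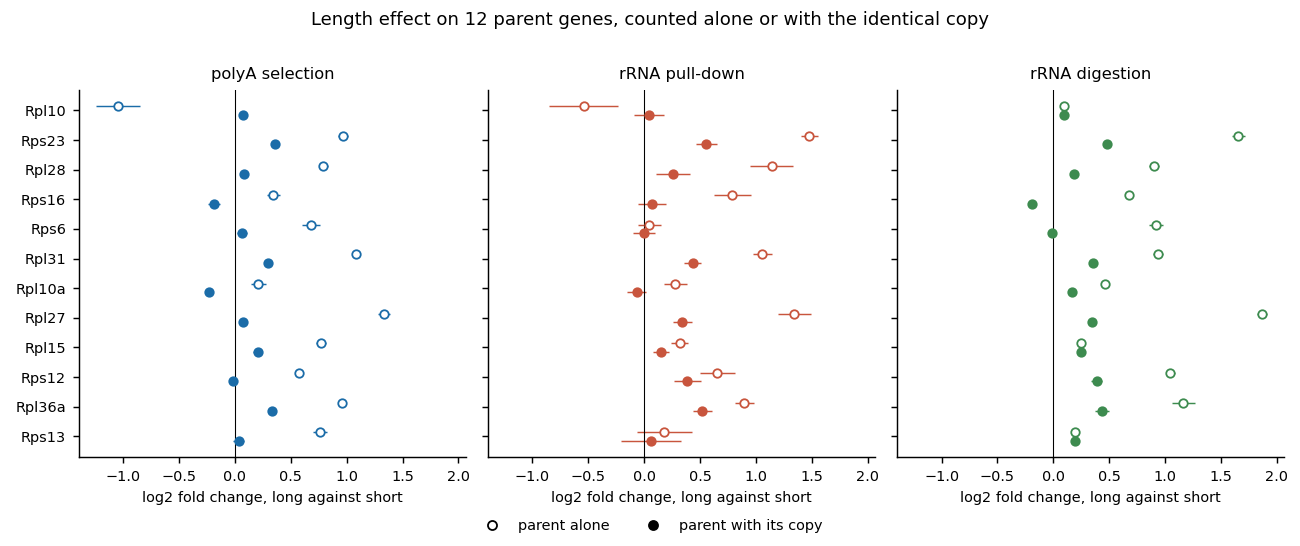
Log2 fold change of the 12 parent genes, long against short fragments, ± SE in each method (3 long and 3 short libraries), counted alone (open) or with the identical copy (filled). In polyA the filled points lie between −0.24 and 0.35 and the open ones between −1.04 and 1.34.

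Method comparisons of the parents also shifted. Against unselected libraries, parents in polyA ranged from −0.17 (Rpl27) to 2.67 (Rpl10) on the log2 scale alone and from 0.66 to 1.01 with the copy, and 9 and then 12 of 12 were called, all higher. In digestion they ranged from −2.67 (Rpl36a) to 2.63 (Rpl10) alone, with 2 higher and 9 lower, and from −1.46 to 0.05 with the copy, with 8 lower. Rpl10 went from 2.63 ± 0.35 (adjusted p = 2.13e-06) to −0.19 ± 0.07 (adjusted p = 0.0503) and Rps6 from −1.18 ± 0.14 to −0.24 ± 0.06 (adjusted p = 0.00242). Between polyA and pull-down, 2 parents were called higher and 4 lower in polyA alone, and 11 higher and 0 lower with the copy.

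Among all 82 cytosolic ribosomal protein genes, 57 were higher and 1 lower with long fragments over the 27 libraries, with a median of 0.24, against 23 of 35 members lower. Against unselected liver, 75 of 82 were higher in polyA libraries, and pull-down had 73 higher and 1 lower, while digestion had 3 higher and 57 lower. Other processed pseudogenes, those of annotated type processed pseudogene without the ribosomal protein name, numbered 9897, of which 477 were tested for length over the 27 libraries. Of these 31 were higher and 200 lower, with a median log2 difference of −0.45. Within methods 169 of 323 were lower in polyA, 25 of 238 in pull-down and 77 of 326 in digestion. Over all genes 17.6% were lower in the 27 libraries, and 28.6%, 0.411% and 9.53% within polyA, pull-down and digestion libraries. Among those tested, calls lower with long fragments thus outnumbered calls higher also outside the ribosomal protein families, and these too could pass the filter through 1 group.

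Members outside the 12 carried few counts. Summed, they reached 27.1 to 31.3 CPM in short and 10.5 to 17.5 in long polyA libraries, 18.4 to 21.96 in short and 7.67 to 8.28 in long digestion libraries, and 1.11 to 3.24 CPM in unselected liver. In pull-down they gave 10.8 to 18.1 CPM with short and 6.64 to 7.004 with long fragments in 2 libraries, and 48.5 in the library with 1.13 M counts. Among the members tested within polyA, 8 of 13 at 99% identity or more outside the 12 were lower with long fragments, and 1, Rps13-ps1, was higher. Of those below 99% or not aligned 11 of 13 were lower, against 28.6% of all genes. In digestion 2 of 5 and 1 of 4 in these classes were lower, against 9.53% of all genes. In pull-down 0 of 3 and 0 of 3 were lower, against 0.411%. These members too could pass the filter through short libraries alone.

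Ramp rate moved no member past the threshold, with 0 of 35 called for fast against slow ramp (4 at an unadjusted p under 0.05, 0 with DESeq2; 0.0194% of all genes called, 0.00648% higher and 0.0130% lower). The heart library, with 22.3 M counts, has no replicate. Its copy share of Rpl10-ps3 was 87.4% (556 of 636 counts; 95% Wilson interval 84.6% to 89.8%), within the range of unselected liver. Rpl28-ps1 took 40.1% (35.5% to 44.8%), Rpl15-ps3 39.7% (35.4% to 44.1%), Rps23-ps1 26.1% (21.95% to 30.8%), Rps16-ps2 16.2% (12.5% to 20.8%) and Rpl31-ps8 13.1% (10.3% to 16.5%). The other 6 were listed at 0, where 3 counts would be 0.515% to 2.05% of the pair. Of those 6, Rps6-ps4, Rpl27-ps3, Rpl36a-ps2 and Rps13-ps2 were at 0 in all unselected liver libraries as well. In bulk tissue, fewer cells of a type and less RNA per cell cannot be told apart, and no test was made between heart and liver.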

How the data were processed

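Expected counts per gene were deposited by the authors, 1 column per library for 34 libraries. Per the submitters' processing notes, which give no role or order, Salmon 1.9.0, UMI-tools 1.1.1, R 4.4.0 and GRCm38 were used. The transcript set, Salmon's settings and the treatment of duplicate reads are not given in the sources used here. The division of reads between near-identical transcripts depends on all of these. Gene names, positions and transcript sequences were taken from GENCODE M21 (GRCm38), which named 50820 of 51368 genes and listed 285 symbols of the kind studied, of which 11 were not analysed here.

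Counts were rounded and given to the quasi-likelihood test of edgeR 4.0.16, run under R 4.3.3 beside limma 3.58.1, with TMM scaling, filterByExpr and Benjamini-Hochberg adjustment over all genes tested, at 0.05. The method and batch comparisons used the 33 liver libraries with ramp and length as covariates, and the length, ramp and interaction tests used the 27 selected libraries or the 9 of 1 method. Standard errors were derived from the fold change and its F statistic. Scripts were tested on simulated counts. Copies were aligned to their parents' transcripts. Alternatives were DESeq2 1.42.0, other scalings, no filter, fits of fewer libraries and libraries left out in turn. Named members were the 12 with the highest mean normalised CPM, those 4 named in the rule, up to 3 per direction with the largest called change in each method or length comparison at 1 normalised CPM or more, and the 5 with the smallest interaction p. Parents of each were named too, and members named for an alternative fit were chosen after their values were seen. The members and lists were chosen with earlier results of these data known. Replicate numbers exist for unselected libraries only.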

Additional observations from a re-analysis of the deposited data

Results flagged for a closer look

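In pull-down libraries the copy share of Rps13-ps2 was 24.2% in the slow-ramp, short-fragment library and 0 in the other 8, which set that library apart from its group. It was 1 of 39 groups of values examined in this way, and chance alone sets apart about 1 group in 20.

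The length effect differed between methods for 8 of the 12 highest members by an interaction test (edgeR quasi-likelihood, adjusted over all genes). Of all genes, 7.97% were called between digestion and pull-down, 1.92% between polyA and pull-down and 25.4% between polyA and digestion. The fitted log2 difference between the effects, digestion minus pull-down, was 12.34 for Rpl28-ps1, 10.70 for Rps16-ps2, 12.96 for Rpl31-ps8, 13.65 for Rps23-ps1 and 11.42 for Rpl36a-ps2. For polyA minus pull-down it was 11.80 for Rpl28-ps1, 11.68 for Rps16-ps2, 10.99 for Rpl27-ps3, 11.56 for Rpl10a-ps1 and 13.60 for Rps23-ps1. These sizes depend on the prior count because the 3 long pull-down libraries list these copies at 0, so only the direction can be read: the fall was steeper in pull-down. One of those 3 libraries holds 1.13 M (1e+06) counts.

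For polyA minus digestion the difference was −0.54 for Rpl28-ps1 and 0.98 for Rps16-ps2, both measurable in each method. It was −13.73 for Rpl31-ps8, −12.97 for Rps6-ps4 and −12.54 for Rpl36a-ps2, which were at 0 in long polyA libraries, and 10.23 for Rpl27-ps3 and 10.10 for Rpl10a-ps1, which were at 0 in long digestion libraries. For these copies too the size depends on the prior count, and only the direction can be read.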

How the results depend on the processing

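Of 117 alternative values of the counts of called members, 92 stayed within 1.5 times the reported count and 25 did not, and the cause was not tested. PolyA against unselected gave 29 with library totals and 5 without any 1 unselected library. Pull-down against unselected gave 3 with DESeq2, 22 with library totals, 2 with the compared libraries alone, 3 without the long pull-down libraries (chosen after seeing the data), and 0 to 1 with 1 unselected library left out. Digestion against unselected gave 25 with library totals, 9 with the compared libraries alone and 2 to 3 with 1 unselected library left out. Fits of the compared libraries alone gave 6 for digestion against pull-down, 12 for polyA against pull-down and 9 for polyA against digestion, and without the low-count filter the last 2 gave 49 and 80, and length over 27 libraries 54. Length in digestion gave 7 with DESeq2 and 10 to 13 with 1 library left out, length in polyA 27 to 36, and length in pull-down 5 to 16, of which 16 without the slow-ramp long library and 12 without the slow-ramp medium library. The batch comparison gave 1 with DESeq2, 1 with the 6 unselected libraries alone and 2 with the replicate block, whose numbers do not pair the samples (correlations 0.0057, −0.035 and −0.064 between same-numbered libraries). Of 830 alternative values for 106 results on named members, 756 kept direction and call, 71 lost the call (18 with DESeq2), and 3 reversed, all for Rpl14-ps1 without the 1 unselected library that held its counts: with 1 unselected library left out it ran from −5.50 to 4.81 for polyA, −6.14 to 3.59 for pull-down and −7.67 to 2.05 for digestion. The summed share without Rpl10-ps3 was 3.36% in both unselected batches. Parents merged with their copy or with all near-identical genes, both chosen after seeing the data, gave 11 and 11 calls for polyA against pull-down, 7 and 7 for length in polyA, 3 and 3 for length in pull-down, and with the copy 7 for length over 27 libraries.

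Library totals shifted the median of all genes by 2.67, 2.31 and 2.85 on the log2 scale for polyA, pull-down and digestion against unselected. Depth limits the copy shares, since copy and parent together held as few as 139 counts in an unselected library and 41 in the pull-down library with 1.13 M counts.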
